A study of Mus musculus with 15 samples.

Results

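The expressed Zfp genes of NIH3T3 fibroblasts were followed after an unfolded protein appeared in the cells. A gene belonged to the set when its symbol was Zfp followed by digits alone and its deposited read count was 10 or more in each of the 5 control samples. By that rule 212 genes were chosen, out of 286 genes with such a name and 20207 genes in each table. All 212 entered the statistical test, which covered 10276 genes. The members were therefore chosen by their control counts, and their control levels are given here as a description.

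Zfp is the mouse name for a zinc finger protein. Most such proteins carry C2H2 fingers, short repeats in which a pair of cysteines and a pair of histidines hold a zinc ion, and arrays of fingers recognise DNA sequence. A large subfamily also carries a KRAB box, which recruits the co-repressor Trim28 (KAP1) and through it the histone methyltransferase Setdb1 and heterochromatin proteins. KRAB zinc finger proteins are best known for silencing retroelements and for holding imprinted loci in their methylated state. A minority of genes with a Zfp symbol act elsewhere, in mRNA decay, ribosome biogenesis, chromosome segregation or ubiquitin transfer. The transcripts of this family are mostly present at low levels, and half-lives were not measured in these samples.

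NIH3T3 is a mouse embryonic fibroblast line. All 15 samples came from a line that stably expressed DD-sfGFP, in which an FKBP-derived destabilizing domain (DD) is joined to superfolder GFP, and that had been sorted for high GFP. The DD is folded while its ligand Shield-1 (S1) is bound and unfolds when S1 is taken away, which was done by adding purified FKBP protein that binds S1. The group cont (5 samples, labelled as without stress, time 0) was compared with samples taken 45 min (3 samples), 135 min (3 samples) and 405 min (4 samples) after S1 removal. All groups carried the same transgene, and no sample of cells lacking the DD or treated with the FKBP protein alone was analysed here. Poly(A) RNA was sequenced, and total counts ran from 6652539 to 30258404 per sample. Nothing in the labels says that replicates were separate cultures, so the p-values measure the spread between these samples, which may be technical.

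The libraries fell into 2 sets that did not coincide with the groups. The study's methods describe an in-house library protocol and also a NuGEN kit, the labels name the kit for every sample, and which library was made in which way is not given in the sources used here. The sets below come from the values alone and were not matched to a protocol. Over genes outside the Zfp name pattern, the slope of log2 CPM on exonic GC content was between -1.44 and -0.693 log2 units per 10 percentage points of GC in set 1, and between -0.407 and 0.00624 in set 2, and the sets were divided at the widest gap between libraries. Set 2 held 1 control (replicate 2), 1 sample at 45 min (replicate 3) and 3 at 405 min (replicates 1, 2 and 4), and all 3 samples at 135 min were in set 1, so set and time are in part confounded. The first principal component, with 56.2% of the variance, followed this split. Each result below is therefore given from the fit on the groups alone and, where it changes a call, from a fit with the library set as a covariate. Fibroblast markers were present in every sample, with Col1a1 between 158 and 376 RPKM (reads scaled by transcript length and library depth) and Vim between 739 and 1759 RPKM. The lowest of them was Pdgfrb, between 5.15 and 15.4 RPKM. Markers of leukocytes, epithelium and endothelium were near 0, with Ptprc at most 0.0699, Epcam at most 0.18 and Pecam1 at most 0.29 RPKM, and Cd68 reached 1.9 RPKM.

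The rule's threshold was set mainly by 1 library. Control replicate 3, the shallowest library and the one with the steepest GC slope, held the lowest count for 177 of the 212 members. Without it the same rule would have taken 243 genes. Just inside the rule were Zfp558 (lowest control count 10), Zfp523 (11) and Zfp36 (12). Just outside were Zfp873 (9), Zfp92 (8.75) and, tied at 8, Zfp382, Zfp467 and Zfp646. Zfp646 had 190, 668, 8, 154 and 256 counts in control replicates 1 to 5, and Zfp703 had 46, 271, 0, 50 and 59. Genes clearly present in 4 controls are thus not members. Of the growth and differentiation list below, Zfp219, Zfp467 and Zfp703 fell outside the rule through a single control each.

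The members were divided by what their proteins carry. In the translated GENCODE vM1 coding sequences of 207 members, 92 had a match to a KRAB A box pattern (9 fixed residues, at most 1 mismatch), and 91 of these also had C2H2 fingers. A further 110 had fingers without a KRAB match, 5 had neither and 5 had no coding sequence. The absence of a match says only that the pattern was not found in the longest annotated coding sequence. The members had a median of 10 fingers, with 12 in those with a KRAB match and 7 in the others with fingers, and Zfp142 had the most, 36. To show what the matches look like in DNA, the KRAB A box of 3 members that rose at 405 min is printed 5′ to 3′ on the coding strand, with the codons of the matched residues in capitals (mm9, chr17:32914368-32914424 minus strand, chr9:122765839-122765895 minus strand and chr7:30609894-30609950 plus strand, each inside 1 coding exon).
Zfp871 KRAB: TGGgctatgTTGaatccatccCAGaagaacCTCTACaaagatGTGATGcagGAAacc
Zfp445 KRAB: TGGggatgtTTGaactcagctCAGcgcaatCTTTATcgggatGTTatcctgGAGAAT
Zfp790 KRAB: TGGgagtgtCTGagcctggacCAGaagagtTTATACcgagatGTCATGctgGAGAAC

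The first 2 of these matched 8 of the 9 residues and Zfp790 matched all 9. The finger shared by nearly the whole family is shown from the same 3 genes and from 2 members without a KRAB match that fell, with the codons of the cysteines and histidines in capitals (mm9, chr17:32912500-32912562 minus, chr9:122762517-122762579 minus, chr7:30613586-30613648 plus, chr3:32418852-32418914 plus and chr1:179378347-179378409 plus, all in coding exons).
Zfp871 finger: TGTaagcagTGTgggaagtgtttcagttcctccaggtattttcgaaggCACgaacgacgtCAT
Zfp445 finger: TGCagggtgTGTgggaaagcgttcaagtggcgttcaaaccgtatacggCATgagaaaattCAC
Zfp790 finger: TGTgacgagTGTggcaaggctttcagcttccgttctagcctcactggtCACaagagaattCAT
Zfp639 finger: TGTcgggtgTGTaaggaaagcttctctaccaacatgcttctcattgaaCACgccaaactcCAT
Zfp238 finger: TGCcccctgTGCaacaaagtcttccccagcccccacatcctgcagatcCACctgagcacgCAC

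Because fingers repeat within and between genes, reads can match more than 1 member. In the deposited counts, 23.8% of the members' values under 1000 differed from a whole number by more than 0.05, against 12.7% of the values of all tested genes, and the source of the fractions was not measured. Of the members with a coding sequence, 25 shared more than 5% of their 50-base stretches with another gene. The example that bears on a result below is Zfp874, of which 36.7% of 50-base stretches also occurred in Zfp874b.

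The members were GC-poor and scarce. Their exons had a median GC content of 46% (211 members), against 49% over all tested genes, and those with a KRAB match had 43.5%. Their mean control level had a median of 2.24 RPKM (range 0.199 to 56.2), against 5.05 RPKM over all tested genes. Members with a KRAB match had a median of 1.79 RPKM and the others with fingers 2.78 RPKM. Chromosome 7 held 48 members, chromosome 17 held 25 and chromosome 13 held 21, and of these 26, 18 and 12 had a KRAB match.

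The highest control level was that of Zfp207 (BuGZ), which loads the spindle checkpoint protein Bub3 onto kinetochores, at 56.2 ± 19.9 RPKM (SD, n = 5). Next came Zfp106, an RNA-binding protein, at 23.5 ± 3.45 RPKM, and Zfp146, a protein made almost only of fingers, at 22.7 ± 3.38 RPKM. Zfp825 followed at 21.7 ± 11.3 RPKM. The last 3 could not be ordered beyond their spread. Zfp825 was uneven among the controls, with 63.8, 16.6, 216, 62.8 and 52.9 CPM (counts scaled to library size, with TMM factors) in replicates 1 to 5. Of these 4 abundant members, Zfp146 passed the test in 1 comparison, given below, and the others in none.

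**Figure D1:**
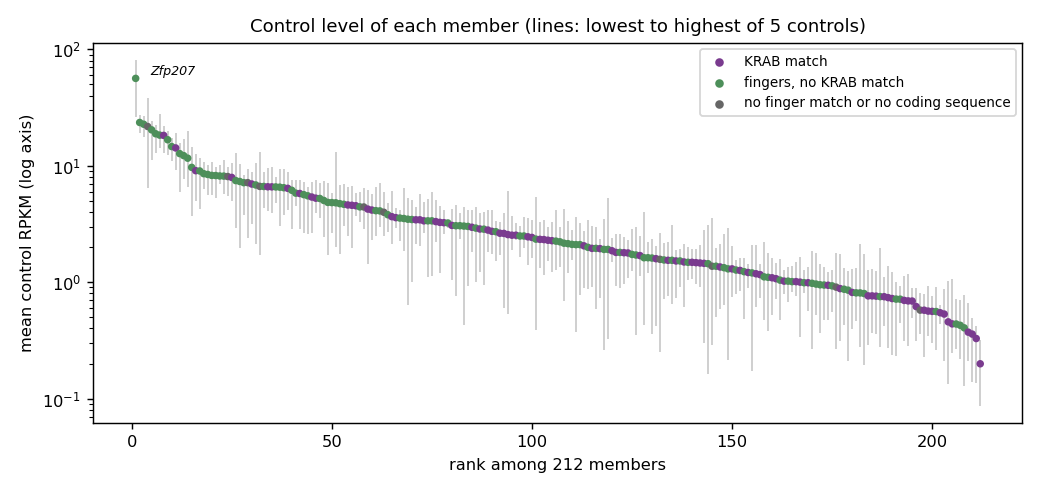
Mean control RPKM of each of the 212 members (log axis) against rank, with a line from the lowest to the highest of the 5 controls and colour for the sequence class. Zfp207 stands alone at 56.2 RPKM, and most members lie below 5 RPKM.

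As a family, the members were on average slightly lower at 135 min than in the controls, and level with them at 405 min. The mean log2 CPM over the 212 members was 4.14 ± 0.08 in the controls (SD, n = 5), 4.05 ± 0.09 at 45 min (n = 3), 4.0 at 135 min (n = 3, lowest sample 3.99) and 4.15 ± 0.08 at 405 min (n = 4). The 3 samples at 135 min lay below every control, whose lowest was 4.05, and the samples at 405 min overlapped the controls. Over the same samples the mean over all tested genes was 4.79, 4.86, 4.81 and 4.87. The family level was described and not tested.

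The members with a KRAB match varied widely among the controls. Their mean log2 CPM was 3.68 ± 0.24 in the controls, 3.46 ± 0.19 at 45 min, 3.48 ± 0.02 at 135 min and 3.61 ± 0.21 at 405 min. In the controls it ran from 3.33 (replicate 2, the control in set 2) to 3.98 (replicate 3), so the samples at 135 min lay below 4 of the 5 controls. Members with fingers and no KRAB match were at 4.51 ± 0.07, 4.52 ± 0.02, 4.41 ± 0.01 and 4.57 ± 0.04. Within library set 1 the KRAB group was 0.28 lower at 135 min than in 4 controls, and 0.21 lower at 45 min (2 samples), while members with fingers and no KRAB match were 0.07 lower and 0.05 higher. Within set 2 at 45 min, in 1 sample against 1 control, the KRAB group was 0.08 lower and the members with fingers alone 0.11 lower. Within set 2, at 405 min, the KRAB group was 0.19 higher than in the single control. Across library sets the members themselves differed: with time held constant, 35 members were higher and 64 lower in set 2, that is 16.5% and 30.2%, against 26% and 24.1% of all tested genes (edgeR, Benjamini-Hochberg adjusted p under 0.05). Of the 92 members with a KRAB match, 3 were higher and 36 lower in set 2, with a median of -0.45 on the log2 scale. The part of the sets in the levels of single groups was not tested.

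**Figure D2:**
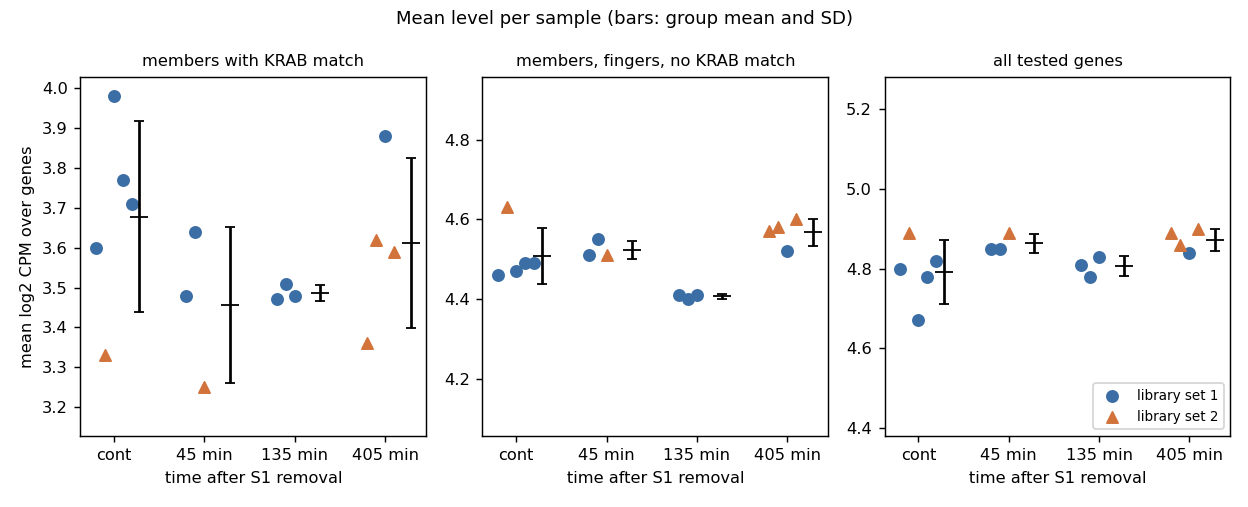
Mean log2 CPM per sample over the 92 members with a KRAB match, the 110 with fingers and no KRAB match, and all tested genes, by time after S1 removal, with circles for library set 1 and triangles for set 2. Each panel spans the same range of log2 units. The 3 samples at 135 min sit together, and within the controls the sample of set 2 is the lowest for the KRAB group.

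At 45 min after S1 removal no member passed the test, in either direction, and 0% of all tested genes did (edgeR quasi-likelihood test, Benjamini-Hochberg adjusted p under 0.05). At an unadjusted p under 0.05, 4 members were higher and 11 lower, against 1.26% and 2.3% of all tested genes. DESeq2 called no member, and 0.0195% and 0.0389% of all tested genes higher and lower. The median log2 fold change over the members was -0.19, against 0.02 over all tested genes, and it was -0.31 over those with a KRAB match and -0.02 over the others with fingers. With the library set in the fit the KRAB median was -0.25. The 2 smallest p-values belonged to Zfp455, a KRAB member, and Zfp488, which is known for its part in oligodendrocyte differentiation.

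Zfp455 was at 2.18, 0.701, 4.88, 2.04 and 2.39 CPM in control replicates 1 to 5 and at 0.332, 0.643 and 0.596 CPM at 45 min. The log2 fold change at 45 min was -2.21 ± 0.65 (SE), with an edgeR adjusted p of 0.698. It stayed low at 135 min (0.488, 0.522 and 0.109 CPM) and was at 0.829, 1.34, 2.13 and 0.935 CPM at 405 min. These are among the lowest levels in the set, and 16.8% of its 50-base stretches also occurred in Zfp456. At 135 min the difference from the controls passed with the library set in the fit (log2 fold change -2.78, adjusted p = 0.0132) and not without it (-2.69, adjusted p = 0.0639).

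Zfp488 varied widely within groups. It was at 20.7, 104, 34.9, 24.3 and 31.8 CPM in the controls, at 127, 402 and 31.0 CPM at 45 min and at 234, 70.9 and 257 CPM at 135 min. The 3 samples at 45 min spanned a range that included 3 of the 5 controls. This overlap came through library set 2, with its control at 104 CPM and its 45-min sample at 31.0 CPM. In set 1 the controls lay between 20.7 and 34.9 CPM, below the other samples at 45 min and all those at 135 min. At 135 min Zfp488 was called higher with the library set in the fit and not without it. At 45 min the log2 fold change was 2.11 ± 0.66, with an edgeR adjusted p of 0.698.

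At 135 min, 3 members were lower than in the controls and none was higher. At an unadjusted p under 0.05, 10 were higher and 27 lower, against 4.58% and 7.35% of all tested genes. DESeq2 called 2 higher and 9 lower, against 1.57% and 2.62%. The 3 are 1.42% of the members, against 0.895% of all tested genes lower and 0.564% higher. Among the 9311 tested genes that pass the same control count rule the shares were 0.988% and 0.58%. The median log2 fold change was -0.24 over the members and -0.06 over all tested genes. On the negative side were 151 of the 212 members, against 5813 of the 10276 tested genes. The median was -0.30 over the members with a KRAB match and -0.17 over the others with fingers. Without control replicate 3 the median was -0.17, against -0.05 over all tested genes. In that fit 2 members (0.943%) were called lower, against 0.856% of all tested genes.

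Zfp503 (Nolz-1), a transcriptional repressor of the developing brain and limb, had the largest fall of the 3. It was at 33, 37.0, 49.3, 40.9 and 48.3 CPM in the controls, at 28.9, 27.6 and 47.9 CPM at 45 min, at 18.1, 17.9 and 13.5 CPM at 135 min and at 26.4, 19.3, 23.7 and 30.7 CPM at 405 min. All samples at 135 and 405 min lay below all controls, and at 45 min the samples overlapped them. Its log2 fold change was -1.34 ± 0.24 at 135 min (edgeR adjusted p = 0.0101) and -0.74 ± 0.21 at 405 min (adjusted p = 0.0246). The difference between 405 and 135 min, 0.60 ± 0.24, did not pass (adjusted p = 0.133). Its exons are 58.9% GC, above the upper quartile of the members (51.2%).

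Zfp746 (PARIS), a repressor degraded through the ubiquitin ligase parkin, fell at 135 min and overlapped the controls again at 405 min. It was at 33.7, 39.7, 54.7, 31.4 and 32.2 CPM in the controls, at 18.1, 19.9 and 19.2 CPM at 135 min and at 42.5, 40.9, 27.1 and 40.2 CPM at 405 min. The samples at 135 min lay below all others, while those at 405 min overlapped the controls. The log2 fold change was -1.0 ± 0.23 at 135 min (edgeR adjusted p = 0.0419) and 0.98 ± 0.24 from 135 to 405 min (adjusted p = 0.0301). The second of these did not pass with the library set in the fit (0.72, adjusted p = 0.126), and the 405-min sample of set 1, at 27.1 CPM, was the lowest of its group.

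Zfp639, a transcription factor with 9 fingers, fell and stayed low. It was at 31.3, 28.7, 29.6, 34.6 and 27.9 CPM in the controls, at 27.1, 21.9 and 20.5 CPM at 45 min, at 15.8, 18.3 and 20.1 CPM at 135 min and at 14.7, 20.2, 18.6 and 19.2 CPM at 405 min. All samples after S1 removal were below all controls. Its log2 fold change was -0.75 ± 0.18 at 135 min (edgeR adjusted p = 0.0473) and -0.74 ± 0.16 at 405 min (adjusted p = 0.00636). Within library set 1 it was -0.77 and -0.74, and within set 2 it was -0.68 at 405 min.

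With the library set in the fit, more members passed at 135 min: 21 lower and 4 higher. These are 9.91% and 1.89% of the members, against 4.88% and 3.06% of all tested genes. The 3 members above were among the 21, of which 9 had a KRAB match. The 4 higher were Zfp142, Zfp418, Zfp488 and Zfp874. Among the 4 controls and 3 samples of set 1 alone, 15 members were lower and 3 higher, against 3.48% and 2.08% of all genes tested there. The median over members on chromosome 17 was -0.51 in both fits and -0.50 within set 1, and over those on chromosome 13 it was -0.50, -0.57 and -0.61. On chromosome 7 it was -0.19, -0.14 and -0.12.

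**Figure D3:**
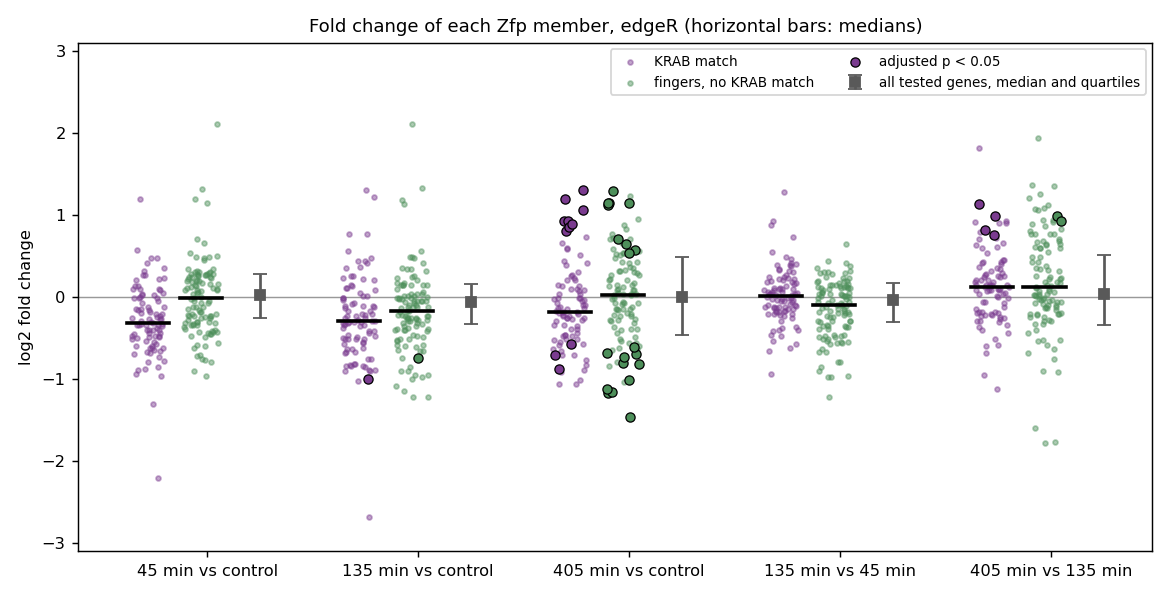
Log2 fold change of each member with a KRAB match and each with fingers and no KRAB match in the 5 comparisons, with black bars at the medians, outlined points where the edgeR adjusted p was under 0.05, and squares for the median and quartiles of all tested genes. The 10 members in neither class are not drawn. The KRAB medians at 45 and 135 min, -0.31 and -0.30, lie below those of all tested genes.

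From 45 to 135 min no member passed in either direction, against 0.185% of all tested genes higher and 0.243% lower (edgeR). With the library set in the fit 1 member, with a KRAB match and on chromosome 7, was higher and 0 were lower. The shares of all tested genes in that fit were 0.438% and 0.584%. At an unadjusted p under 0.05, 3 members were higher and 9 lower, against 2.37% and 4.15% of all tested genes, and DESeq2 called 1 higher and 2 lower, against 0.545% and 0.594%. The smallest p-values were those of Zfp503 and Zfp418. Zfp418, a KRAB member, was at 12.7, 14.4 and 7.99 CPM at 45 min and at 27.8, 27.5 and 29.5 CPM at 135 min, without overlap.

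At 405 min, 17 members were higher and 15 lower than in the controls. These were 8.02% and 7.08% of the members, against 9.99% and 13.4% of all tested genes. Among tested genes with the same control counts the shares were 10.4% and 14.6%. The difference between these shares was not tested. At an unadjusted p under 0.05, 35 members were higher and 37 lower, against 18.7% and 22.4% of all tested genes. Without control replicate 2, the control of library set 2, 40 members were higher and 42 lower (18.9% and 19.8%), against 24.5% and 23.9% of all genes tested in that fit. Without a single 405-min sample the counts ran from 9 to 21 higher and from 3 to 35 lower, with 21 and 35 when replicate 3, of set 1, was the one left out. The shares of all tested genes in those fits are not given here, so this range is not read as particular to the members. The median log2 fold change was -0.08 over the members and 0.00 over all tested genes. Of the 17 higher, 11 had no overlap between the 405-min samples and the controls, and of the 15 lower, 4 had none, which is 5.19% and 1.89% of the members. Among all tested genes, 6.75% lay wholly above the controls and 6.43% wholly below, and of all genes called higher or lower 55.4% and 42.3% did so.

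With the library set in the fit 11 members were higher and 5 lower, which is 5.19% and 2.36% of the members against 6.17% and 6.87% of all tested genes. Of the 17 higher, 10 passed in both fits, and of the 15 lower, 5 did. The lost and the kept calls differed in median GC content, with overlapping ranges. Members called in the first fit only had a median exonic GC content of 41.9% where lower and 51.5% where higher, and those called in both fits had 47.5% and 45.5%. The ranges were 35.8% to 49% and 46.3% to 60.8% for the first, and 42.6% to 58.9% and 39.5% to 56.7% for the second. With the GC offset in place of the library set, 19 members were higher and 16 lower, against 11.3% and 16% of all tested genes. Why calls were lost was not tested. Across the 211 members with a GC value, the correlation of the log2 fold change at 405 min with exonic GC was 0.49 in the first fit and 0.06 with the library set as a covariate (Pearson, across genes, which are not independent replicates). Over all tested genes it was 0.43 and 0.15. Among the calls lost were the largest falls of the first fit, Zfp62 (log2 fold change -1.47, then -0.77), Zfp518 (-1.17, then -0.78), Zfp706 (-1.16, then -0.57) and Zfp800 (-1.12, then -0.58), which were singled out after their values were seen. Other lost calls kept most of their size, such as Zfp109 (0.92, then 0.81, adjusted p = 0.0524) and Zfp276 (0.57, then 0.43), likewise singled out, and all 17 and all 15 kept their sign.

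**Figure D4:**
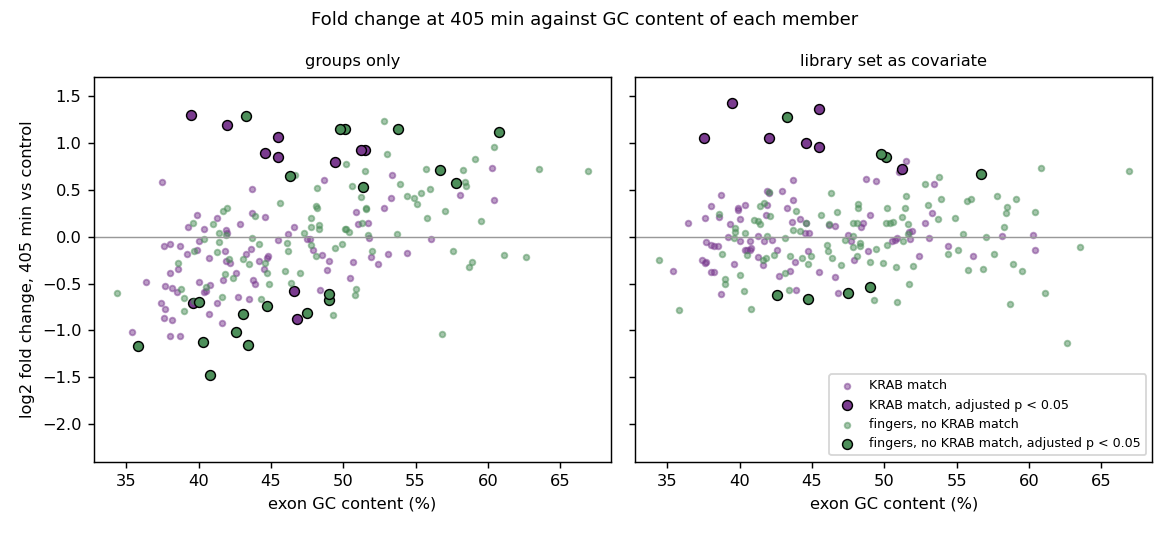
Log2 fold change at 405 min against exonic GC content for the members, from the fit on groups alone (left) and with the library set as a covariate (right), with outlined points where the edgeR adjusted p was under 0.05. The upward slope on the left (r = 0.49) is absent on the right (r = 0.06), where 11 members are higher and 5 lower, Zfp503 among the lower not being drawn because it is in neither class.

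Zfp871 had the lowest adjusted p of the members higher at 405 min in the fit on groups alone. It is a KRAB member with 15 fingers whose box and finger are printed above. It was at 68.0, 81.9, 52.6, 86.7 and 87.1 CPM in the controls, at 68.2, 86.2 and 109 CPM at 45 min, at 105, 115 and 86.8 CPM at 135 min and at 173, 176, 160 and 181 CPM at 405 min. All 405-min samples stood above all others. In log2 terms the fold change at 405 min was 1.19 ± 0.17 (edgeR adjusted p = 0.000412), 1.10 within library set 1 and 1.10 within set 2. It was also higher at 405 than at 135 min (0.75 ± 0.20, adjusted p = 0.0415), a call that did not hold with the library set in the fit (0.56, adjusted p = 0.14).

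Zfp445 is a KRAB zinc finger protein that helps to maintain imprinted methylation. It was at 47.2, 33.4, 32.1, 37.4 and 48.6 CPM in the controls, at 39.7, 47.6 and 43.2 CPM at 45 min, at 38.8, 41.8 and 45.7 CPM at 135 min and at 68.4, 66.0, 84.9 and 75.7 CPM at 405 min. The first 3 groups overlapped and the last lay above them all. The log2 fold change was 0.89 ± 0.15 against the controls (edgeR adjusted p = 0.00166) and 0.81 ± 0.18 against 135 min (adjusted p = 0.0209). It was 1.03 and 1.06 against the controls within library sets 1 and 2, and the difference from 135 min passed in both fits.

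Zfp790, another KRAB member, was at 8.45, 13, 9.41, 9.04 and 12.8 CPM in the controls and at 25.2, 19.8, 20.9 and 22.0 CPM at 405 min. The groups did not overlap. Its log2 fold change was 1.06 ± 0.18 (edgeR adjusted p = 0.00161).

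Zfp142, with the longest array of fingers in the set, was at 47.6, 82.4, 34.3, 49.2 and 50.5 CPM in the controls, at 80.5, 74.1 and 79.0 CPM at 135 min and at 139, 124, 84.0 and 122 CPM at 405 min. The highest control (set 2) and the lowest 405-min sample (set 1) nearly met, and no value overlapped. In log2 terms the change at 405 min was 1.15 ± 0.21 (edgeR adjusted p = 0.00234) and 0.85 with the library set in the fit (adjusted p = 0.00144).

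Zfp180 was at 26, 33.1, 8.72, 23.2 and 28.9 CPM in the controls and at 63.0, 58.3, 40.2 and 52.3 CPM at 405 min. The groups did not overlap, and control replicate 3 was far below the other controls. The log2 fold change was 1.15 ± 0.28 (edgeR adjusted p = 0.0117).

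The remaining named members that rose share sequence with other genes. Zfp59, of which 10.2% of 50-base stretches also occurred in Zfp60, went from 3.79, 5.26, 4.01, 3.53 and 6.14 CPM in the controls to 10.7, 11.9, 11.6 and 10.5 CPM at 405 min, a log2 fold change of 1.29 ± 0.23 (edgeR adjusted p = 0.00222). Zfp874 was at 3.20, 3.96, 2.79, 6.19 and 2.61 CPM in the controls, at 10.6, 6.74 and 10.5 CPM at 135 min and at 6.15, 9.30, 12.8 and 8.91 CPM at 405 min. Its lowest sample at 405 min lay just below its highest control, and the other samples did not overlap. Its log2 fold change was 1.30 ± 0.29 (edgeR adjusted p = 0.00857), and with the sharing described above part of its reads cannot be told apart from those of Zfp874b.

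The 5 members lower at 405 min in both fits were Zfp238, Zfp318, Zfp639, Zfp503 and Zfp146. Zfp238 (RP58, also Zbtb18), a repressor that acts in neuronal and muscle differentiation, had the largest fall of the 5 in the fit on groups alone, and Zfp503 (-0.86) and Zfp639 (-0.67) fell more than it with the library set in the fit. It was at 73.6, 47.6, 98.7, 84.2 and 74.2 CPM in the controls, at 58.6, 65.7 and 64.6 CPM at 135 min and at 23.9, 30, 58.3 and 36.9 CPM at 405 min. The groups overlapped through the control of set 2 (47.6 CPM) and the 405-min sample of set 1 (58.3 CPM). Its log2 fold change was -1.02 ± 0.25 (edgeR adjusted p = 0.0136) and -0.62 with the library set in the fit (adjusted p = 0.014).

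Zfp318, a nuclear protein known for its control of IgD expression in B cells, was at 68.2, 51.3, 86.5, 66.3 and 67.2 CPM in the controls, at 48.8, 48.7 and 37.2 CPM at 135 min and at 29.7, 38.3, 48.2 and 39.0 CPM at 405 min. All samples from 135 min on lay below all controls. In log2 terms the fold change at 405 min was -0.81 ± 0.18 (edgeR adjusted p = 0.00823), and at 135 min it was -0.59 ± 0.20 (adjusted p = 0.199).

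Zfp146, among the most abundant members, was at 103, 82.4, 145, 117 and 89.5 CPM in the controls, at 96.5, 98.8 and 96.9 CPM at 135 min and at 64.6, 78.3, 65.1 and 60.1 CPM at 405 min. The 405-min samples were below all controls, by a small margin for the control of set 2. The log2 fold change was -0.68 ± 0.16 (edgeR adjusted p = 0.0107), and within library sets 1 and 2 it was -0.81 and -0.29.

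**Figure D5:**
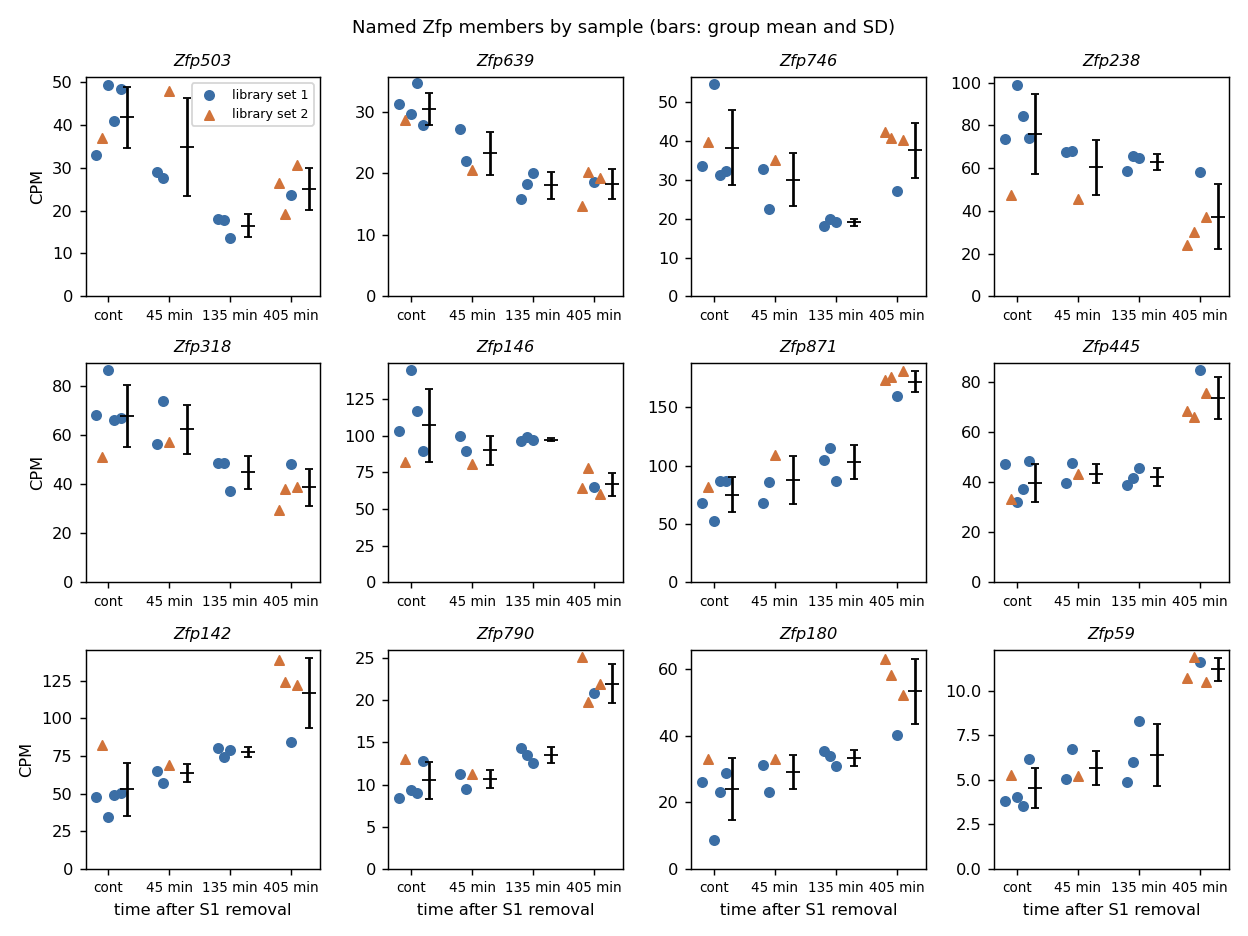
CPM of 12 named members in all 15 samples by time after S1 removal, with circles for library set 1, triangles for set 2 and bars for the group mean and SD, each panel from 0. Zfp871 and Zfp445 are level until 135 min or rise little and then stand clear at 405 min, while Zfp639 is below the controls at every later time.

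Between 135 and 405 min 6 members were higher and none lower. The controls do not enter this difference, but they enter the fit's estimate of the spread. That is 2.83% of the members, against 2.24% of all tested genes higher and 2.82% lower. At an unadjusted p under 0.05, 39 members were higher and 9 lower, against 14.9% and 12.7% of all tested genes. The count depended on the samples in the fit: 22 were higher and 5 lower without control replicate 2 (7.34% and 6.03% of all genes tested there). Without control replicate 3, 17 were higher and 3 lower, which is 8.02% and 1.42% of the members, against 5.84% and 6.16% of all tested genes. A fit on the compared groups alone gave 32 and 12, and the share of all tested genes there is not given here. None was higher without any 1 of the 135-min samples or without 405-min replicate 4, and 1 was without 405-min replicate 1 or 2, while 12 were without replicate 3. Shares of all tested genes in these last fits are not given here either. The 6 were Zfp28, Zfp192, Zfp295, Zfp445, Zfp746 and Zfp871, with log2 fold changes between 0.75 and 1.13, and 4 of them had a KRAB match. In all 6 the groups did not overlap, as in each of the 230 genes called higher. The median log2 fold change was 0.12 over the members and 0.04 over all tested genes.

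With the library set in the fit, 6 members were again higher and none lower, against 1.66% and 2.01% of all tested genes, but Zfp445 was the single gene called in both fits. The 5 calls lost kept their sign, with Zfp192 at 0.99 and then 1.06 (adjusted p = 0.0585), Zfp28 at 1.13 and then 0.83 (adjusted p = 0.0753), Zfp295 at 0.92 and then 0.66, and Zfp746 and Zfp871 as given above. The median over members was then 0.24, and 0.39 over those with a KRAB match, against 0.02 over all tested genes. As all 3 samples at 135 min and 1 of the 4 at 405 min belonged to set 1, the covariate fit compares few samples within a set, and within set 1 the median over KRAB members was 0.38. DESeq2 on all samples called 23 higher and 4 lower, against 7.91% and 6.72% of all tested genes.

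Of the 9 measured members linked to RNA binding, ribosomes or kinetochores, none passed in any comparison, either in the fit on groups alone or with the library set in the fit (edgeR, adjusted p). Their log2 fold changes at 405 min ran from -0.56 to 1.05 in the first fit and from -0.31 to 0.38 in the second. Without control replicate 2, Zfp36 and Zfp259 were called higher (1.67 and 0.94) and Zfp106 and Zfp326 lower (-0.61 and -0.70). With the GC offset Zfp330 was called higher (0.57) and Zfp598 lower (-0.99). Zfp36 (tristetraprolin), which targets AU-rich mRNAs for decay, was at 3.93, 11.6, 2.09, 1.97 and 4.73 CPM in the controls and at 13.5, 10.6, 4.83 and 12.1 CPM at 405 min, with overlap. Zfp622, a factor of large ribosomal subunit maturation, was at 42.9 ± 12.2 CPM in the controls and 57.6 ± 6.95 CPM at 405 min. Zfp259 (Zpr1) was at 40.9 ± 18.9 and 63.6 ± 6.26 CPM, and Zfp326, a partner of RNA polymerase II in splicing, at 92.9 ± 37.3 and 63.0 ± 12.9 CPM. Zfp207, Zfp106, Zfp330 and Zfp346 had log2 fold changes at 405 min of 0.14, -0.49, 0.41 and -0.15.

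None of the 3 ubiquitin or SUMO ligases passed in either of these fits. Zfp91, a ubiquitin ligase, was at 129 ± 11 CPM in the controls and 105 ± 9.82 CPM at 405 min (edgeR adjusted p = 0.0765), and it was called lower at 405 min without control replicate 2 (log2 fold change -0.31), without control replicate 3 (-0.36) and by DESeq2 (-0.31). Zfp451, a SUMO ligase, was at 44.9 ± 3.88 and 45.5 ± 4.72 CPM. Zfp598, which marks collided ribosomes, was at 63.2 ± 19.5 and 52.4 ± 6.43 CPM, and its call with the GC offset is given above.

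Of the 8 measured transcription factors of the growth and differentiation list, Zfp503 and Zfp238 fell at 405 min in both fits. The others did not pass at 405 min in either fit. Without control replicate 2, 2 of the 8 were called higher and 4 lower at 405 min, against 24.5% and 23.9% of all genes tested there. With the GC offset 0 were higher and 3 lower, against 11.3% and 16%. Zfp143, an activator at many promoters, was at 35.8 ± 6.81 CPM in the controls and 24.8 ± 1.19 CPM at 135 min, and passed at 135 min with the library set in the fit (log2 fold change -0.61, adjusted p = 0.0122) but not without it (-0.53, adjusted p = 0.281). Zfp217, an oncogene in breast tumours, was at 24.1 ± 10.9 CPM and at 39.5 ± 4.68 CPM at 405 min. Zfp521, which acts in progenitor cells, was at 18.6 ± 4.01 and 10.3 ± 5.63 CPM. Zfp148, Zfp281 and Zfp384 had log2 fold changes at 405 min of -0.03, -0.24 and 0.30.

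None of the 4 measured members of the fixed list for imprinting, retroelement silencing or embryonic roles passed in either fit. Zfp445, described above as a protein of imprinted methylation, was not on that list and passed at 405 min in both fits. Zfp57, which protects imprinted methylation, was at 21.1 ± 4.32 CPM in the controls, 14.3 ± 0.366 CPM at 135 min and 20.8 ± 4.55 CPM at 405 min. Zfp809, which silences retroviruses in embryonic cells, was at 28.8 ± 8.10 and 24.2 ± 8.73 CPM in the controls and at 405 min. Zfp568 was at 13.6 ± 3.39 and 12.3 ± 1.63 CPM, and Zfp110 at 31.8 ± 7.78 and 34.3 ± 2.94 CPM. Neither of the 2 members linked to p53, Zfp365 and Zfp346, passed in either fit. The p53 list also named Zfp668, which had 163, 373, 0, 122 and 91 counts in control replicates 1 to 5. That gene fell outside the rule through control replicate 3. Also listed was Zfp385a, whose symbol ends in a letter, with 58, 311, 1, 48 and 96 counts. The list is thus only in part covered. Within library set 2, Zfp365 had a log2 fold change of 0.92 at 405 min, against 1 control. It was at 80.2 ± 24.1, 105 ± 5.43 and 87.2 ± 10.5 CPM in the controls, at 135 min and at 405 min.

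The co-repressor partners of KRAB proteins, which are not members, were checked because the proteins act through them. Of 14 genes, 1 was higher and 3 lower at 405 min, beside the 9.99% and 13.4% of all tested genes. None was higher and 2 were lower, Cbx3 and Chd3, with the library set in the fit. Trim28, the direct partner of the KRAB box, was at 203 ± 93.6 CPM in the controls and 264 ± 88.0 CPM at 405 min (log2 fold change 0.38 ± 0.29, edgeR adjusted p = 0.321). Setdb1 was at 48.5 ± 4.24 and 50.2 ± 4.28 CPM. Cbx3 (HP1γ), a reader of methylated histone H3, fell from 415 ± 64.7 to 213 ± 41.9 CPM (-0.96 ± 0.17, adjusted p = 0.0022), and it passed in both fits. Hdac2 and Morc3 fell and Chd4 rose in the first fit, and these 3 calls did not hold with the library set in the fit. Chd3, a nucleosome remodeller, was at 158 ± 19.8 and 122 ± 16.5 CPM and passed with the library set in the fit (-0.58, adjusted p = 0.00093) and not without it (-0.37, adjusted p = 0.0624).

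Related zinc finger families were measured beside the members. Of 25 tested Zbtb genes, 3 were higher and 3 lower at 405 min, and of 9 Zscan and Zkscan genes, 2 were higher, beside 9.99% and 13.4% of all tested genes higher and lower (edgeR). With the library set in the fit these counts were 1 and 2 for Zbtb and 0 for Zscan and Zkscan. Of 10 Zfp genes whose symbol ends in a letter and so fell outside the rule, 3 were lower, or 2 with the library set in the fit. One of these was Zfp36l2, a relative of Zfp36 that binds AU-rich mRNAs, which fell from 609 ± 198 to 238 ± 45.1 CPM (log2 fold change -1.36 ± 0.23, edgeR adjusted p = 0.00145) and passed in both fits.

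The promoters of the called members were searched for stress-related motifs. RefSeq promoters (GRCm38.p6, 250 bases before to 50 after each start, both strands searched) were matched for 176 of the 212 members. The antioxidant response element TGACNNNGC occurred in 2 of 15 promoters of members higher at 405 min, in 2 of 13 of those lower and in 15.9% of all members with a promoter, against 17.2% of tested genes. Counted by single promoters, it was in 12.4% of all promoters, a share that is not comparable with shares of genes. The heat shock element GAANNTTC occurred in 1 and 1 of these, in 7.95% of members and in 7% of tested genes (7.86% of all single promoters). The cyclic AMP response element TGACGTCA occurred in 2 and 1, in 5.68% of members and in 3.85% of tested genes (1.79% of all single promoters). The CCAAT box occurred in 7 and 5, in 45.5% of members and in 43.7% of tested genes (37.4% of all single promoters). A gene with several promoters counted once if any held the motif.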

How the data were processed

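mRNA-seq was measured in 15 samples of NIH3T3 cells with DD-sfGFP. The authors aligned reads to mm9 and counted RefSeq genes in DNAnexus, then tested with edgeR. The aligner is not given in the sources used here. The deposited tables hold, per gene, an expected count (not always whole) and an RPKM value that the authors scaled by length and depth.

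Expected counts were rounded and analysed with edgeR 4.0.16 (R 4.3.3): genes at 1 count or more in all samples, TMM factors, a quasi-likelihood fit on the 4 groups with all 15 samples, and Benjamini-Hochberg adjustment over 10276 genes at 0.05. CPM values use TMM library sizes, and mean levels are log2 CPM with a prior count of 2. SE is the log2 fold change divided by the square root of F. RPKM was used only to compare levels between genes. A count of 10 has a sampling error of 31.6%, and one of 1000 has 3.16%, which covers counting error only.

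The library sets came from the slope of each library's log2 CPM on exonic GC (NCBIM37, which is mm9, with GENCODE vM1) over 9893 genes outside the name pattern. Fingers were matched as cysteine and histidine spacings in translated coding sequences.

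The members, gene lists and comparisons were chosen with earlier results of these data known. Genes named are, for each of 135 and 405 min against control and 405 against 135 min, up to 6 per direction with the largest change among those passing in both fits, for the other comparisons up to 3 or else the 2 smallest p-values, the 4 highest control RPKM, 3 genes on each side of the count rule, and all members of the role lists. Lists named Zfp638 and Zfp131 too, which are not analysed here. They also named Zfp219, Zfp423, Zfp467, Zfp703, Zfp42, Zfp385a and Zfp668, which are not members. DESeq2 1.42.0, other filters, size factors, a GC offset, a replicate block, subsets of samples and leaving out each replicate were tried as alternatives. The fit was also run on simulated counts with known changes. Those counts held no library sets and the outcome is not given here, so nothing above rests on that run.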

Additional observations from a re-analysis of the deposited data

Results flagged for a closer look

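In groups of 4 or 5 samples, 3 single values stood apart from the rest of their group by Dixon's criterion at 95%, out of 86 groups examined over the named members and the mean levels. Chance alone flags about 1 in 20 groups. Zfp746 in replicate 3 at 405 min, the sample of that time in library set 1, was at 4.77 log2 CPM, with the other 3 between 5.33 and 5.41. Zfp180 in control replicate 3 was at 3.14 log2 CPM, with the other 4 between 4.55 and 5.05. Zfp622 in control replicate 3 was at 4.50 log2 CPM, with the other 4 between 5.44 and 5.76. Control replicate 3 had the lowest total count and the steepest GC slope, and the part of either in these values was not tested.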

How the results depend on the processing

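The counts of called members depended on the fit. With the library set as a covariate, 4 members were higher and 21 lower at 135 min, and 11 higher and 5 lower at 405 min. From 45 to 135 min 1 was higher, against 0.438% of all tested genes. With the GC offset, 1 was higher and 6 lower at 135 min, against 1.19% and 1.45% of all tested genes. It gave 19 higher and 16 lower at 405 min, against 11.3% and 16%. At 405 against 135 min it gave 15 higher (7.08% of the members) and 0 lower, against 4.08% and 4.45%. From 45 to 135 min it gave 1 higher, against 0.36%. DESeq2 called 2 higher and 9 lower at 135 min. At 405 min it called 23 higher and 29 lower, against 14% and 19.2% of all tested genes. At 405 against 135 min it called 23 higher and 4 lower, and from 45 to 135 min 1 higher and 2 lower. The DESeq2 shares for these other comparisons are given above. With filterByExpr 1 was lower at 135 min, and 14 were higher and 13 lower at 405 min. Without a filter on low counts 1 was lower at 135 min, 11 higher and 11 lower at 405 min and 0 higher at 405 against 135 min. With the fit restricted to the groups compared, 1 was lower at 135 min, 8 higher and 2 lower at 405 min, and 32 higher and 12 lower at 405 against 135 min. Within library set 1, 3 were higher and 15 lower at 135 min, with the shares of all genes given above. Set 1 holds 1 sample at 405 min and set 2 holds 1 control, so only medians are given there. Within set 1 the median log2 fold change over the members was -0.00 at 405 min and 0.23 at 405 against 135 min. Over all tested genes these were -0.02 and 0.00. Within set 2 at 405 min the median was 0.07 over the members and -0.01 over all tested genes. These subsets hold fewer samples. The cause of the other shifts was not tested. Shares of all tested genes are not given here for the other filters, the compared groups alone and the replicate blocks. The same holds for most fits without 1 sample, so these counts are not read as particular to the members.

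No pairing by replicate number was seen: 4 of 19 pairs with the same number correlated over 0.1, and 2 of 15 libraries correlated best with one of their own number. The correlations followed the library set, with 20 of 42 pairs over 0.1 within a set and 5 of 41 between sets. A pairing across sets could be hidden by this, so whether the numbers pair the samples is not decided. With the replicate block, 0 members were lower at 135 min, 8 higher and 3 lower at 405 min and 0 higher at 405 against 135 min. With the replicate block and the library set, 1 was higher and 12 lower at 135 min, 11 higher and 5 lower at 405 min and 2 higher at 405 against 135 min.

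Leaving out 1 replicate gave 0 to 2 higher and 0 to 6 lower at 135 min, 9 to 40 higher and 3 to 42 lower at 405 min, and 0 to 22 higher and 0 to 5 lower at 405 against 135 min. The highest counts came without control replicate 2, the control of library set 2. The lowest at 405 min came without the 405-min replicates 2 (higher) and 1 (lower).

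The mean family level at 135 min was 0.14 log2 units below control, and the log2 ratio of summed CPM was -0.04. At 405 min these were 0.01 and -0.14. The summed CPM of the members averaged 7228 in the controls and 6538 at 405 min. That of all tested genes fell too, from 1035318 to 948613, so the lower sum is not read as particular to the members. For the mean family level, leaving out 1 replicate gave -0.14 to -0.04 at 45 min, -0.17 to -0.12 at 135 min and -0.02 to 0.05 at 405 min, the last crossing 0.

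Named members called at 405 min gave 338 values under alternatives, of which 289 passed and 49 kept their direction without passing. The values that did not pass include those from the fits within library set 1 or set 2. Those fits hold 1 sample at 405 min or 1 control, so the fold changes given from them are effect sizes alone. Most of these members were named because they passed on groups alone and with the library set, so that alternative passed by the choice. Most other alternatives reuse most of the same samples, so these counts are not independent tests. At 135 min 40 of 75 passed. No called value changed direction under the alternatives run. Zfp746 and Zfp639 at 135 min passed in 11 and 8 of 25 alternatives.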
